A study of Mus musculus with 9 samples.

Results

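Cytokine messenger RNAs are kept short-lived by a small set of RNA-binding proteins, and 9 genes of this machinery were followed here out of 54532 genes in the deposited expression table. They were taken by gene name: Zfp36, Zfp36l1 and Zfp36l2 of the tristetraprolin family, the regnase genes Zc3h12a and Zc3h12c, the roquin genes Rc3h1 and Rc3h2, the HuR gene Elavl1 and the kinase gene Mapkapk2. Of the 9, 7 rose and 1 fell with LPS, beside 28.8% and 26.8% of all tested genes. When H-CDs were given with LPS, Zfp36, Mapkapk2 and Zc3h12a were lower than with LPS alone, and none of the 9 was called higher. Of all tested genes, 9.05% were called lower and 6.54% higher in that comparison.

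RNA came from RAW 264.7 cells, a mouse macrophage line whose labelled source is ascites and whose genotype is labelled WT. Control cells were untreated. Another group received lipopolysaccharide (LPS, a bacterial cell wall component sensed by Toll-like receptor 4) at 1 µg/ml, and the last received that dose of LPS plus H-CDs at 400 µg/ml, with an exposure of 6 h and 3 libraries in each group. H-CDs is the submitters' name for a supplement that the labels do not spell out; the series title concerns a fruit-derived nanozyme with superoxide dismutase activity, and no group received H-CDs without LPS.

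Tristetraprolin binds AU-rich elements in 3′ untranslated regions (3′UTRs) and brings in the deadenylation complex, so that the bound transcript loses its poly(A) tail and is degraded. HuR binds similar elements and generally stabilises the transcript. Regnase-1 is an endonuclease that cuts stem-loops in cytokine 3′UTRs, and the roquins bind stem-loops and also recruit deadenylases. MK2, the product of Mapkapk2, is activated by the kinase p38 and phosphorylates tristetraprolin, which restrains its destabilising activity. In macrophages exposed to LPS this network sets how long Tnf, Il6 and related transcripts last, and several of the factors are themselves encoded by transcripts with AU-rich elements.

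The sequences below show a form of those elements, an AU-rich nonamer found in the Zfp36 transcript itself and in some cytokine targets of tristetraprolin. Each is a 30-base window of the transcript’s 3′UTR (GENCODE release M21, build GRCm38, 5′ to 3′ on the transcript strand, T for U) that opens with the nonamer TTATTTATT and holds the most copies of it, and capitals mark every nonamer in the window.
Zfp36 (chr7:28376940-28376969, minus strand): TTATTTATTgtattaagattttatagtatt
Zfp36l1 (chr12:80108156-80108185, minus strand): TTATTTATTttagaaattctcccctttgtg
Zfp36l2 (chr17:84184903-84184932, minus strand): TTATTTATTatcttgtgaaaagtatacatt
Rc3h1 (chr1:160970053-160970082, plus strand): TTATTTATTgagatgaggagagaaatgtta
Rc3h2 (chr2:37373276-37373305, minus strand): TTATTTATTttactctgtaacctgaaatga
Elavl1 (chr8:4285777-4285806, minus strand): TTATTTATTTATTTATTTATTtttatttat
Tnf (chr17:35199678-35199707, minus strand): TTATTTATTATTTATTTATTATTTATTtat
Csf2 (chr11:54247318-54247347, minus strand): TTATTTATTTATTTATTTATTtttgcaact
Cxcl2 (chr5:90905326-90905355, plus strand): TTATTTATTtatctatgtatTTATTTATTt
In Tnf, Csf2 and Elavl1 the window held 4 overlapping nonamers, whereas the windows of the tristetraprolin and roquin genes held a single one.

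The nonamer occurred in the 3′UTR of 6 of the 9 genes, 66.7%, beside 7.28% of the 9715 tested genes with an annotated 3′UTR. The Elavl1 3′UTR, of 4218 bases, held 8 copies, and only 0.566% of those tested genes held 3 or more. The 3′UTRs of Zc3h12a, Zc3h12c and Mapkapk2 held none. Among 21 transcripts known to be bound or destabilised by tristetraprolin, Zfp36 included, 9 held the nonamer, 42.9%. Those of Il1b, Il6, Ccl2 and Ier3 held none. The shorter pentamer ATTTA occurred in all 9, from 1 copy in the 1392 bases of Mapkapk2 to 25 copies in the 5160 bases of Rc3h2. Zfp36 had 3 pentamers in 774 bases. The 9 genes have long 3′UTRs, with a median of 1835 bases against 941 for the tested genes, and longer stretches hold more matches. A match is a description of the sequence and not a measured binding site.

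Reads assigned to genes came to between 14377161 and 16069968 per library. They were recovered as whole numbers from the deposited FPKM (fragments per gene, divided by gene length and by the size of the library). All 9 genes were above an FPKM of 1 in every library, so the filter on low values removed none. Of 8 macrophage markers, 7 had a mean above 1 FPKM in each group, while Mertk was at or near 0; their summed level was 2428 to 2727 FPKM in control, 1561 to 1732 with LPS and 1025 to 1180 with LPS + H-CDs, mostly through Lyz2. The single markers moved in both directions: of 7 tested, 2 (Adgre1 and Itgam) rose and 2 (Csf1r and Lyz2) fell with LPS, and with H-CDs against LPS 1 (Csf1r) rose and 4 fell. Summed markers of lymphocytes stayed at or below 0.402 FPKM, those of fibroblasts and epithelium at or below 0.162 and those of neutrophils at or below 1.25. LPS + H-CDs replicate 1 stood apart in that 13 mitochondrial mRNAs took 0.490% of its reads, against 1.45 to 1.99% in the other 8 libraries; results below were also computed without it. The deposited scaling had multiplied library totals by 1.13 to 1.15 in control, 0.928 to 0.935 with LPS and 0.983 to 0.993 with LPS + H-CDs. Scaling to TPM or to total reads instead shifted the median log2 change of all tested genes to -0.30 and -0.22 for LPS against control and to 0.02 and 0.06 for LPS + H-CDs against LPS, and the sign of small differences from control can turn with it. In bulk RNA, fewer cells of a type and less RNA per cell cannot be told apart.

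**Figure D1:**
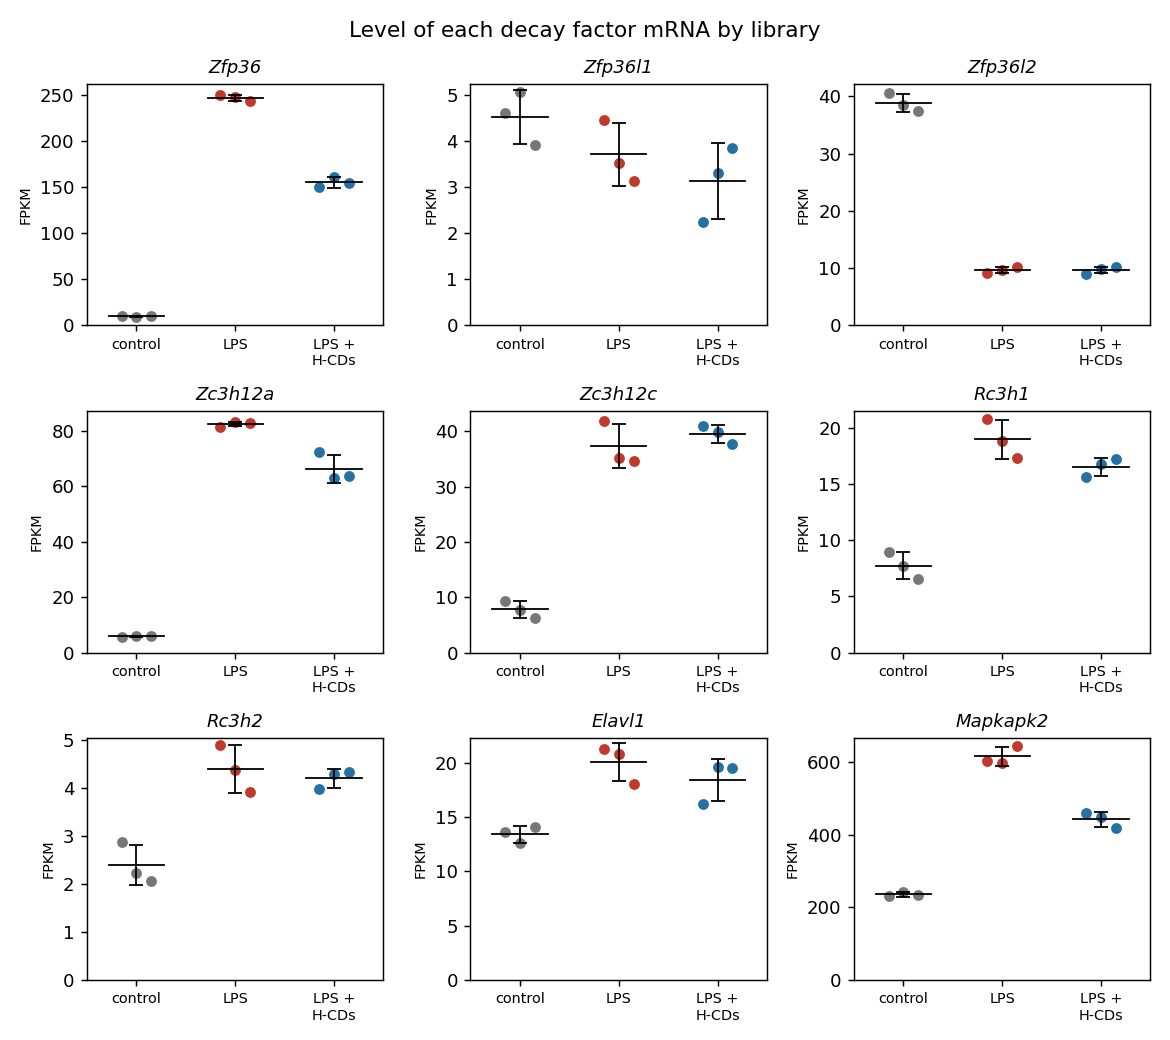
FPKM of each of the 9 decay factor genes in the 9 libraries, with 1 panel per gene and a vertical axis from 0 that differs between panels; points are libraries, horizontal lines are group means and error bars are the SD of 3 libraries. Zfp36 goes from 9.91 in control to 247 with LPS and 155 with LPS + H-CDs, while Zfp36l2 goes from 38.9 to 9.64 and 9.66.

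LPS against control gives the response of the decay factors to the stimulus. Zfp36, the tristetraprolin gene itself (ENSMUSG00000044786, chr7:28376784-28380253, minus strand), stood at 10.2, 9.21 and 10.3 FPKM in the control libraries. With LPS it stood at 249.8, 248.0 and 243.3 FPKM, and with LPS + H-CDs at 149.8, 161.2 and 154.6 FPKM. The 3 groups did not overlap, and each LPS library lay far above each control library. The rise with LPS was 24.9-fold (log2 fold change of FPKM + 1, 4.51 ± 0.06 SE, limma adjusted p = 2.73e-11). By that log2 change Zfp36 was at rank 41 from the top of 11707 tested genes. All ranks given are of the log2 change of FPKM + 1, which understates the fold of low genes.

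The paralogue Zfp36l2 (ENSMUSG00000045817, chr17:84183931-84187947, minus strand), which binds the same elements and is known for its part in lymphocyte development, went the other way. It stood at 40.7, 38.5 and 37.5 FPKM in control, and at 9.13, 9.64 and 10.2 FPKM with LPS. Every LPS library was below every control library. The fall was 4.03-fold (log2 fold change -1.91 ± 0.07; limma adjusted p = 1.49e-08) and ranked 59 from the lowest of all tested genes.

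The other paralogue, Zfp36l1 (ENSMUSG00000021127, chr12:80107754-80113013, minus strand), was the lowest of the family in control and was counted with only 99 to 272 reads per library. Its control libraries stood at 4.60, 5.05 and 3.90 FPKM and its LPS libraries at 4.46, 3.52 and 3.14 FPKM. These groups overlapped, and the difference was not called (log2 fold change -0.23, 95% interval -0.60 to 0.13; limma adjusted p = 0.250). Under the scaling to TPM and to total reads it was called lower, at -0.59 (adjusted p = 0.0272) and -0.47 (adjusted p = 0.0296).

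Through these opposite changes the composition of the family turned over. Zfp36 made up 18.6 ± 1.25% (SD, n = 3) of the summed family FPKM in control and 94.9 ± 0.0768% with LPS. Zfp36l2 made up 72.9 ± 0.373% in control and 3.70 ± 0.247% with LPS. The summed level rose from 53.3 ± 1.98 to 260.4 ± 3.44 FPKM, so the family as a whole was dominated by Zfp36l2 in untreated cells and by Zfp36 in stimulated ones. The difference in the Zfp36 share had an exact permutation p of 0.1 (2-sided), the smallest that 3 libraries against 3 allow. These shares compare levels per length, and the length the authors used for Zfp36, 3470 bases, equals its whole genomic span.

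**Figure D2:**
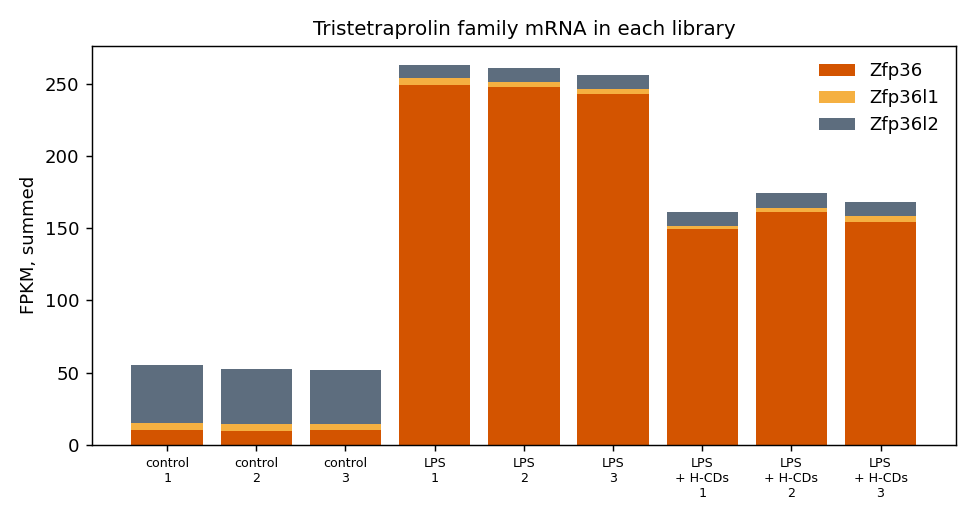
Summed FPKM of the 3 tristetraprolin family genes in each of the 9 libraries, as stacked bars from 0 coloured by gene. The bars of the control libraries are mostly Zfp36l2 (72.9% on average), those of the LPS libraries mostly Zfp36 (94.9%), and the LPS + H-CDs bars are lower (168 against 260.4 FPKM in sum) but still mostly Zfp36 (92.4%).

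Among the regnases, Zc3h12a (ENSMUSG00000042677, chr4:125118423-125127840, minus strand) encodes regnase-1, the nuclease that limits Il6 mRNA in macrophages. It stood at 5.73, 6.02 and 5.92 FPKM in control and at 81.5, 83.1 and 82.9 FPKM with LPS. The groups lay wide apart, and the rise was 14.0-fold (log2 fold change 3.60 ± 0.06; limma adjusted p = 1.79e-10), rank 88 from the top. Zc3h12c (ENSMUSG00000035164, chr9:52111344-52168572, minus strand), a relative with the same nuclease domain, stood at 9.40, 7.75 and 6.34 FPKM in control and at 42.0, 35.3 and 34.7 FPKM with LPS. Its rise was 4.76-fold (2.13 ± 0.12; limma adjusted p = 5.51e-07), rank 270 from the top. Zc3h12c was the higher of the pair in each control library, with a Zc3h12a to Zc3h12c ratio of 0.609 to 0.934, and Zc3h12a was the higher in each LPS library, with a ratio of 1.94 to 2.39.

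The roquin genes rose less. Rc3h1 (ENSMUSG00000040423, chr1:160906418-160974978, plus strand), encoding roquin-1, stood at 8.91, 7.70 and 6.54 FPKM in control and at 20.8, 18.8 and 17.3 FPKM with LPS. Rc3h2 (ENSMUSG00000075376, chr2:37370069-37422903, minus strand), encoding roquin-2, stood at 2.87, 2.24 and 2.06 FPKM in control and at 4.89, 4.38 and 3.91 FPKM with LPS. Neither gene's groups overlapped. Rc3h1 rose 2.46-fold (1.20 ± 0.10; limma adjusted p = 1.02e-05) and Rc3h2 1.84-fold (0.67 ± 0.10; adjusted p = 0.000443).

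Elavl1 (ENSMUSG00000040028, chr8:4285382-4325413, minus strand), encoding the stabilising protein HuR, stood at 13.6, 12.6 and 14.1 FPKM in control and at 21.3, 20.8 and 18.02 FPKM with LPS. Its groups did not overlap, and the rise was 1.49-fold (0.54 ± 0.09; limma adjusted p = 0.000812). Under the scaling to TPM this call was lost (0.22; adjusted p = 0.0879). Elavl1 overlaps Ccl25 on the opposite strand, which had at most 197 reads in a library, and the labels do not say that strands were kept apart.

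Mapkapk2 (ENSMUSG00000016528, chr1:131053700-131097826, minus strand) was the most abundant of the 9 in every library. It stood at 230.5, 242.1 and 232.6 FPKM in control and at 602.9, 597.8 and 645.2 FPKM with LPS. The groups lay far apart, and the rise was 2.62-fold (1.38 ± 0.07; limma adjusted p = 1.50e-07). Another gene model on the same strand within this locus, Gm37084, had at most 242 reads in a library.

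Counted together, 7 of the 9 genes were called higher with LPS and 1, Zfp36l2, lower, at a limma adjusted p under 0.05. Across all tested genes 28.8% were called higher and 26.8% lower, 55.6% in either direction. The groups did not overlap for the same 8 genes, 7 higher and 1 lower, beside 63.9% of all tested genes, 33.2% higher and 30.7% lower. The median log2 change of the 9 was 1.20, beside 0.03 for all tested genes.

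In control the order of levels per length ran from Mapkapk2 at 235 FPKM through Zfp36l2 at 38.9, Elavl1 at 13.4, Zfp36 at 9.91, Zc3h12c at 7.83, Rc3h1 at 7.72, Zc3h12a at 5.89 and Zfp36l1 at 4.52 to Rc3h2 at 2.39. Zc3h12c overlapped both of its neighbours in that order, Zfp36 and Rc3h1. With LPS the order became Mapkapk2 at 615, Zfp36 at 247, Zc3h12a at 82.5, Zc3h12c at 37.3, Elavl1 at 20.1, Rc3h1 at 19.0, Zfp36l2 at 9.64, Rc3h2 at 4.39 and Zfp36l1 at 3.71. There Elavl1 overlapped Rc3h1, and Rc3h2 overlapped Zfp36l1. The order of the means with LPS + H-CDs was that with LPS, and Elavl1 and Rc3h1 were the only neighbours that overlapped.

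LPS + H-CDs against LPS asks what the supplement changed in stimulated cells. Zfp36 was lower in all 3 LPS + H-CDs libraries, given above, than in any LPS library. Its level fell 1.59-fold, from 247 ± 3.34 to 155 ± 5.73 FPKM (log2 fold change -0.67 ± 0.06; limma adjusted p = 0.000154), at rank 306 from the lowest of all tested genes. Without LPS + H-CDs replicate 1 the change was -0.64 (adjusted p = 0.000511).

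Mapkapk2 stood at 458.8, 447.8 and 418.8 FPKM with LPS + H-CDs, below all LPS libraries. It fell 1.39-fold (-0.48 ± 0.07; limma adjusted p = 0.00155), and by 0.50 on the log2 scale without LPS + H-CDs replicate 1 (adjusted p = 0.00189). Thus tristetraprolin's transcript and that of the kinase which phosphorylates it were both lower. Zc3h12a stood at 72.3, 63.1 and 63.8 FPKM, again below all LPS libraries. It fell 1.24-fold (-0.31 ± 0.06; limma adjusted p = 0.0106), and by 0.37 without LPS + H-CDs replicate 1, which was the highest of its group (adjusted p = 0.00266).

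The other 6 genes were not called. Rc3h1 stood at 15.6, 16.8 and 17.2 FPKM with LPS + H-CDs, just below the lowest LPS library, with a log2 change of -0.19 (95% interval -0.42 to 0.05; limma adjusted p = 0.269). Zc3h12c stood at 40.99, 39.9 and 37.7 FPKM, within the range of the LPS libraries, with a change of 0.09 (interval -0.19 to 0.36; adjusted p = 0.695). So regnase-1 and its relative, which both rose with LPS, were not both called with H-CDs; whether their changes differ was not tested, and their ratio went from 1.94 to 2.39 with LPS to 1.58 to 1.76 with LPS + H-CDs.

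Zfp36l2 stood at 9.04, 9.81 and 10.1 FPKM, almost the LPS values, with a change between -0.14 and 0.15 on the log2 scale by its 95% interval (limma adjusted p = 0.983). Elavl1 stood at 16.2, 19.6 and 19.5 FPKM, overlapping LPS (-0.12, interval -0.32 to 0.09; adjusted p = 0.447). Rc3h2 stood at 3.98, 4.30 and 4.34 FPKM (-0.05, interval -0.28 to 0.19; adjusted p = 0.803). Zfp36l1 stood at 2.23, 3.31 and 3.84 FPKM, the most scattered of the 9, and the interval of its change, -0.56 to 0.16, is the widest (adjusted p = 0.448).

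In sum 3 of the 9 genes were called lower and 0 higher with H-CDs by limma, beside 9.05% of all tested genes lower, 6.54% higher and 15.6% either way. At an unadjusted p under 0.05 the count was 3 lower and 0 higher, beside 17% of all tested genes lower, 13.4% higher and 30.4% either way, so 3 of 9 is near the background by that rule. On the recovered reads edgeR called 3 lower and 0 higher (all genes 9.09% lower, 9.05% higher, 18.1% either way), and so did DESeq2 (11.6%, 8.64% and 20.2%). The groups did not overlap for 4 genes, the 3 named and Rc3h1, all with lower values in LPS + H-CDs, and for 0 genes with higher values, beside 20.4% of all tested genes lower, 16.4% higher and 36.8% either way. In the authors' deposited table the 3 genes with an adjusted p under 0.05 were the same, with log2 fold changes of -0.66 for Zfp36, -0.46 for Mapkapk2 and -0.30 for Zc3h12a, and 0 of the 9 were higher; that table's background was 6% lower, 4.12% higher and 10.1% either way.

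**Figure D3:**
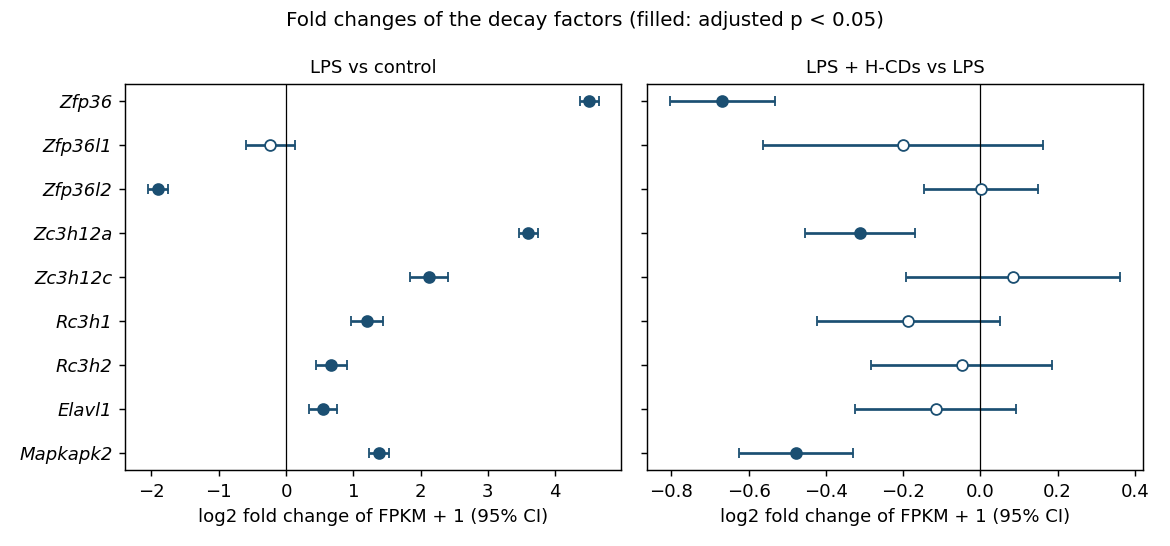
Log2 fold change of FPKM + 1 for each of the 9 genes, LPS over control on the left and LPS + H-CDs over LPS on the right; the horizontal scales differ, points are estimates from the limma fit, bars are 95% confidence intervals and filled points have an adjusted p under 0.05. Zfp36 (-0.67), Mapkapk2 (-0.48) and Zc3h12a (-0.31) are filled on the right, and the other 6 intervals span 0.

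Set against the size of the LPS response, the 3 genes differed. Of the distance in mean FPKM between control and LPS, the LPS + H-CDs group kept 54.4% for Mapkapk2, 61.3% for Zfp36 and 79.0% for Zc3h12a. For the genes whose change with H-CDs was not called, the corresponding values were 75.8% for Elavl1, 78.2% for Rc3h1, 90.5% for Rc3h2, 99.9% for Zfp36l2 and 107.5% for Zc3h12c. No value is given for Zfp36l1, which was not called with LPS. These percentages share the LPS libraries with both comparisons and are given without a test.

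Set against control, with which the LPS comparison shares libraries, LPS + H-CDs left 7 genes higher and 2 lower, beside 26.7% and 25.4% of all tested genes, 52% in either direction. The groups did not overlap for any of the 9, 7 higher and 2 lower. They also did not overlap for 57.7% of all tested genes, 29.7% higher and 28% lower. Zfp36 remained 15.7-fold above control (log2 fold change 3.84; limma adjusted p = 1.24e-10) and Zc3h12a 11.3-fold (3.29). The remaining increases were 5.05-fold for Zc3h12c, 2.14-fold for Rc3h1, 1.88-fold for Mapkapk2, 1.76-fold for Rc3h2 and 1.37-fold for Elavl1. Zfp36l2 was 4.02-fold lower (-1.90). Zfp36l1 was called lower at the edge of the threshold (-0.43 ± 0.16; limma adjusted p = 0.0471), and without LPS + H-CDs replicate 1, its lowest library, the call was lost (-0.27; adjusted p = 0.138), as it was without control replicate 1 or 2, LPS replicate 2 or LPS + H-CDs replicate 2.

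The balance between the mRNAs of these factors was also followed within each library, as ratios of levels per length. The log2 ratios themselves depend on the authors' gene lengths, 3470 bases for Zfp36 and 10363 for Elavl1. Their differences between groups do not. The log2 ratio of Zfp36 to Elavl1, of destabiliser to stabiliser, was -0.44 ± 0.03 in control (SD, n = 3), 3.63 ± 0.11 with LPS and 3.08 ± 0.12 with LPS + H-CDs. The ratio was thus lower by 0.55 with H-CDs, without overlap of the groups. The log2 ratio of Mapkapk2 to Zfp36 was 4.57 ± 0.13 in control, 1.32 ± 0.08 with LPS and 1.51 ± 0.09 with LPS + H-CDs, again without overlap; without LPS + H-CDs replicate 1 its difference of 0.19 with H-CDs became 0.14, still without overlap. Each difference had an exact permutation p of 0.1 (2-sided), the smallest that 3 against 3 allow. The Zfp36 share of its family was 92.4 ± 0.651% with LPS + H-CDs against 94.9 ± 0.0768% with LPS, with the same exact p of 0.1, and Zfp36l2 made up 5.75 ± 0.229%.

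Zfp36 is an immediate early gene, and the bases before its RefSeq start are shown because it rose most of the 9. The sequence is the 250 bases before the RefSeq start (GRCm38.p6, chr7:28379229-28379478, minus strand, 5′ to 3′ on the gene's strand). Capitals mark letters that match the consensus of a serum response element and the letters TTCNNNGAA of a GAS element.
Zfp36 upstream: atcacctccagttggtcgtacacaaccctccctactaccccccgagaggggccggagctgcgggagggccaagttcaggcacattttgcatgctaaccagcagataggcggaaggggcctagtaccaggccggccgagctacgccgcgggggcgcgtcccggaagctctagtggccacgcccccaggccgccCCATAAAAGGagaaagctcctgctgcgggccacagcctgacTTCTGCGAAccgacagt
The RefSeq start lies inside the deposited gene, whose 5′ end is at 28380253, so the window precedes the RefSeq start and not the start of the model that was counted. The consensus of each element is palindromic, so each was found on both strands. In windows that reach 50 bases past the start, a match to the serum response element consensus occurred in 1.63% of 32851 mouse promoters and TTCNNNGAA in 8.3%. Among 9 windows of 8 of the genes, Zfp36 alone held either. The letters TGACTCA of an AP-1 site were found in the window of Rc3h1 (5.2% of promoters) and TGACNNNGC, the core of an antioxidant response element, in that of Mapkapk2 (12.4%). No window held an NF-kB site by its consensus or the cAMP response element TGACGTCA, which occurred in 6.93% and 1.79% of all promoters. All searches covered both strands, and a match is not a measured site.

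The genes whose profile over the 9 libraries was most like that of Zfp36 or Zc3h12a were taken by the root mean square difference of log2(FPKM + 1), each profile set to 0 at its control mean, among 7264 protein-coding candidates. For Zfp36 they were Ccrl2, an atypical chemokine receptor gene (0.130), Zfp811 (0.148) and Irf7, an interferon regulatory factor gene (0.179). Ccrl2 went from 0.152 ± 0.112 to 23.7 ± 1.13 and 16.9 ± 1.19 FPKM, and Zfp811 from 0.0381 ± 0.0414 to 19.6 ± 1.17 and 14.3 ± 1.38. Both are near 0 in control, where the added 1 FPKM sets their place on this scale, and their folds in FPKM are far above that of Zfp36. Irf7 went from 4.16 ± 0.236 to 98.8 ± 2.38 and 65.2 ± 1.75 FPKM. For Zc3h12a they were Nlrp3, the inflammasome sensor gene (0.0506), Odc1, the first enzyme of polyamine synthesis (0.0534), and Apol9b (0.0604). Nlrp3 went from 21.2 ± 1.46 to 257 ± 2.97 and 215 ± 19.8 FPKM.

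Other regulators of AU-rich and stem-loop RNAs gave 18 tested genes of 24. With LPS 8 rose and 3 fell, beside 28.8% and 26.8% of all tested genes, with a median log2 change of 0.10. Arid5a was below 1 FPKM in each control library and Auh in each LPS library, so the filter favoured calling Arid5a higher and Auh lower. Under TPM and total-read scaling the split was 3 against 8 and 3 against 6. Of all 11707 tested genes, TPM scaling called 1676 higher and 5657 lower, and total-read scaling 1904 and 5191. Malt1, the paracaspase that cleaves regnase-1 and the roquins, rose from 3.94 ± 0.146 to 44.6 ± 4.06 FPKM (3.20 ± 0.07; limma adjusted p = 1.07e-09). Igf2bp2, encoding an RNA-binding protein that stabilises transcripts, rose from 4.47 to 31.8 FPKM. With H-CDs 0 were called higher and 3 lower by limma, beside 6.54% and 9.05% of all tested genes, with a median of -0.18. For this list TPM scaling gave 0 and 1 and total-read scaling 1 and 2. Of all 11707 tested genes, TPM scaling called 875 higher and 690 lower, and total-read scaling 1195 and 690. At an unadjusted p under 0.05 there were 1 higher and 8 lower, beside 13.4% and 17% of all tested genes; edgeR gave 1 higher and 2 lower, and DESeq2 1 and 5; leaving out any single library gave 0 higher and 1 or 2 lower, with 1 lower without LPS replicate 2 or LPS + H-CDs replicate 2. Malt1 fell to 19.0 ± 0.932 FPKM (-1.19; limma adjusted p = 1.82e-05), a larger fold than that of any of the 9 factors. Igf2bp2 stood at 33.2 ± 4.99 FPKM (0.06; adjusted p = 0.783). Arid5a, which protects Il6 mRNA against regnase-1, stood at 0.241, 1.35 and 1.97 FPKM in control, LPS and LPS + H-CDs (H-CDs against LPS 0.34; adjusted p = 0.0522).

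The deadenylation machinery, which the tristetraprolin family and the roquins recruit, gave 21 tested genes. With LPS 6 rose and 5 fell, near the 28.8% and 26.8% of all tested genes, with a median of 0.08. Under TPM and total-read scaling 4 rose and 10 or 9 fell. Of all 11707 tested genes, 1676 and 1904 were higher and 5657 and 5191 lower under those scalings. Btg2 rose from 10.1 to 24.2 FPKM (1.19; limma adjusted p = 1.31e-07), Btg1 from 30.4 to 61.3 (0.99; adjusted p = 1.83e-05), and Tob1 fell from 8.64 to 4.37 (-0.85; adjusted p = 9.84e-05); all 3 encode adaptors that bind the deadenylase. With H-CDs 2 rose and 5 fell, beside 6.54% and 9.05% of all tested genes, with a median of -0.13. Under TPM and under total-read scaling 3 rose and 3 fell, beside 875 and 1195 of all 11707 tested genes higher and 690 lower under either. Without LPS + H-CDs replicate 1 the count for this list was 0 higher and 4 lower. Leaving out LPS replicate 1 or LPS + H-CDs replicate 2 gave 0 higher and 2 lower, and leaving out LPS replicate 2 gave 1 and 3. For LPS against control the lower count ranged from 1 to 5, with 1 without control replicate 2. Btg1 fell to 39.4 FPKM (-0.63; adjusted p = 0.00238) and Btg2 to 19.8 (-0.28; adjusted p = 0.00978).

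Decapping and exosome genes gave 22 tested of 23. With LPS 12 rose and 4 fell, beside 28.8% and 26.8% of all tested genes, with a median of 0.17. Under TPM and total-read scaling, however, 3 and 5 rose and 9 and 8 fell. Of all 11707 tested genes, 1676 and 1904 were higher and 5657 and 5191 lower under those scalings. The helicase gene Ddx6 rose from 30.1 to 51.5 FPKM (0.77; limma adjusted p = 0.000106) and the exonuclease gene Xrn1 from 3.30 to 6.38 (0.78; adjusted p = 0.000159). With H-CDs 1 fell and 0 rose by limma, beside 9.05% and 6.54% of all tested genes, with a median of -0.12. At an unadjusted p under 0.05 there were 6 lower and 0 higher, beside 17% and 13.4% of all tested genes, and edgeR and DESeq2 each gave 3 lower and 0 higher. The 1 gene called lower by limma was Ddx6, at 40.6 FPKM (-0.33, limma adjusted p = 0.0439). Its call was lost without any 1 of the LPS or LPS + H-CDs libraries and without control replicate 2. The call was also lost with no filter and with TPM or total-read scaling. Leaving out 1 library gave 7 to 12 higher and 2 to 4 lower for LPS against control, with 7 and 2 without LPS replicate 2.

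Around MK2, a broad list of p38 signalling genes gave 20 tested genes of 25. It also held Dusp and Ppp phosphatase genes and Ywha adaptor genes, whatever kinase they act on. With LPS 12 rose and 3 fell, beside 28.8% and 26.8% of all tested genes, with a median of 0.28. Apart from Tab2 and Map2k4, those that rose were Dusp, Ppp or Ywha genes. The p38 gene Mapk11 was not called (0.095, limma adjusted p = 0.294). Under TPM and total-read scaling 6 rose and 7 or 5 fell, beside 1676 and 1904 of all 11707 tested genes higher and 5657 and 5191 lower. The 3 that fell in the main fit were Mapk14, the p38 alpha gene, from 42.5 ± 1.70 to 20.4 ± 0.514 FPKM (-1.02 ± 0.05, limma adjusted p = 2.82e-07), Tab1 from 12.0 to 6.77 and the p38-activating kinase gene Map2k3 from 44.8 to 30.5. So the transcripts of p38 alpha and MK2, which act in sequence, went opposite ways with LPS. The MAP kinase phosphatase genes Dusp5 (1.68 to 94.3 FPKM), Dusp2 (6.49 to 106.5) and Dusp16 (2.67 to 19.7) rose, and whether their products act on p38 was not tested. With H-CDs 1 rose and 4 fell, beside 6.54% and 9.05% of all tested genes, with a median of 0.02. TPM scaling gave 1 and 2, and total-read scaling 3 and 3, beside 875 and 1195 of all 11707 tested genes higher and 690 lower under either. The 1 higher in the main fit, Map2k3, was lost in 10 of 19 alternatives, and without LPS replicate 1 the count was 0 higher and 2 lower. Dusp16 fell to 11.4 FPKM (-0.74; adjusted p = 0.00024) and Dusp2 to 68.9 (-0.62; adjusted p = 0.000991). Dusp1, the p38 phosphatase whose own mRNA tristetraprolin binds, stood at 2.05, 7.99 and 5.27 FPKM in the 3 groups. Its change with H-CDs (-0.52, limma adjusted p = 0.0268) was not called without LPS replicate 1 or 2 or LPS + H-CDs replicate 1 or 3. Nor was it called with no filter, with TPM scaling or with only the 2 groups compared.

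Transcripts known to be bound or destabilised by tristetraprolin were read with H-CDs against LPS, since several of them passed the filter only through the libraries with LPS. Of 19 tested, 4 rose and 11 fell, beside 6.54% and 9.05% of all tested genes, with a median log2 change of -0.52 beside -0.01 for all tested genes; without LPS + H-CDs replicate 1, 4 rose and 10 fell. Zfp36 is among the 11 that fell. With TPM scaling the calls of Lif and Dusp1, which fell, and of Il23a, which rose, were lost. With total-read scaling that of Lif was lost. All 19 were called higher with LPS, beside 28.8% of all tested genes, so the all-gene shares are not those of LPS-raised genes. The cytokine gene Csf2 fell from 130.9 ± 3.37 to 46.6 ± 2.61 FPKM (-1.47 ± 0.06; limma adjusted p = 1.46e-06), the chemokine gene Ccl2 from 36.3 ± 0.586 to 11.4 ± 1.62 (-1.60 ± 0.09; adjusted p = 1.18e-05) and Il1b from 460.1 ± 6.14 to 237 ± 19.8 (-0.96 ± 0.07; adjusted p = 6.17e-05). In contrast Ier3 rose from 1202 ± 22.3 to 1928 ± 110 FPKM (0.68; adjusted p = 0.00167), Vegfa from 23.6 to 34.9 (0.54; adjusted p = 0.00255) and the chemokine gene Cxcl2 from 1183 ± 64.2 to 1886 ± 330 (0.66; adjusted p = 0.00463). Tnf, the best known target, was not called, at 2684 ± 70.8 against 2559 ± 435 FPKM (-0.08, 95% interval -0.34 to 0.17, limma adjusted p = 0.680). Without LPS + H-CDs replicate 1 its change turned sign, to 0.047, and was still not called. Csf2, Cxcl2 and Tnf, whose 3′UTRs hold 4, 4 and 5 nonamers, thus fell, rose and were not called. Of the genes named here whose 3′UTRs held none, Il1b and Ccl2 fell and Ier3 rose.

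Transcripts known to be cut by regnase-1 or bound by roquin-1 gave 11 tested of 18, with 1 higher and 6 lower with H-CDs, beside 6.54% and 9.05% of all tested genes, and a median of -0.31; the counts were the same without LPS + H-CDs replicate 1. All 11 were called higher with LPS, beside 28.8% of all tested genes, and several passed the filter only through the libraries with LPS. Il1b, Il6, Tnf, Ptgs2 and Ier3 stand in both target lists. Lcn2, the siderophore-binding protein gene, fell from 19.2 ± 2.65 to 5.04 ± 0.589 FPKM (-1.73 ± 0.11; limma adjusted p = 1.82e-05), and Nfkbiz, encoding the nuclear cofactor that drives Il6 and Lcn2, from 171.8 ± 8.80 to 102.2 ± 0.884 (-0.74 ± 0.10; adjusted p = 0.00129). Il6 fell from 16.5 ± 1.19 to 10.2 ± 1.81 FPKM (-0.65 ± 0.11; adjusted p = 0.00500). Zc3h12a itself, which regnase-1 cuts, is among the 6. Ptgs2 was not called (-0.17; adjusted p = 0.351). Steady-state levels were measured, and decay rates were not.

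**Figure D4:**
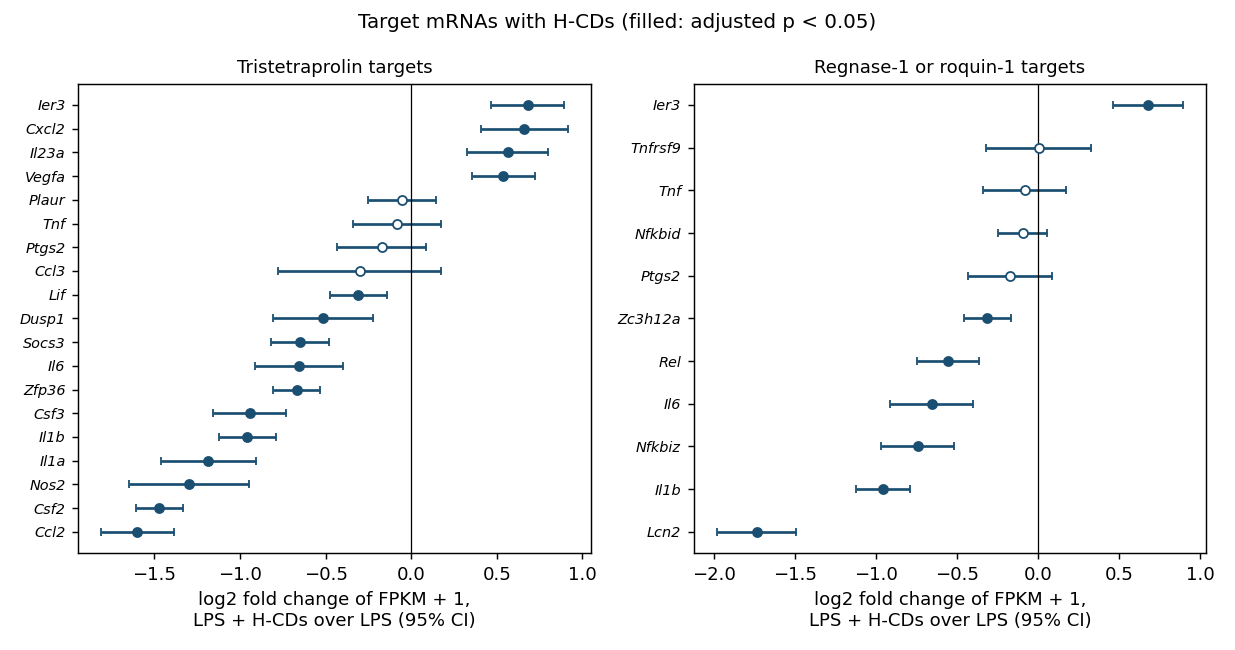
Log2 fold change of FPKM + 1, LPS + H-CDs over LPS, for the tested transcripts known as targets of tristetraprolin (left, 19 genes) and of regnase-1 or roquin-1 (right, 11 genes), with horizontal scales that differ; bars are 95% confidence intervals and filled points have a limma adjusted p under 0.05. Both panels hold genes on each side of 0, with Ccl2 (-1.60) and Lcn2 (-1.73) lowest and Ier3 (0.68) highest.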

How the data were processed

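The deposited expression table gives FPKM for 54532 genes in 9 libraries, computed by the authors; FPKM multiplied by the authors' gene length was a whole multiple of 1 read for 100% of values (tolerance 0.01), so reads were recovered. A deposited table for 21576 genes compares LPS + H-CDs with LPS and holds a scaled signal for each library, with the authors' log2 fold change and p-value, per the file headers. Its columns abbreviate the supplement to CD, taken as H-CDs since only that group was left. No per-sample column belonged to another series. Per the submitters' processing notes the build was GRCm38 (mm10); no source used here gives the aligner, counting tool, scaling or test. Per the labels' protocols, poly-T beads purified mRNA from TRIzol RNA for random-hexamer cDNA; strand is not stated.

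The 11707 genes that reached 1 FPKM in 3 or more of the 9 libraries were tested in 1 limma fit (limma 3.58.1, R 4.3.3) with a variance trend on log2(FPKM + 1) over all 9 libraries, 2-sided, with Benjamini-Hochberg adjustment over the 11707 genes and a threshold of 0.05. A fold change on this scale understates the change of low genes; fold values without log2 are ratios of mean FPKM. Ratios of 1 value per library were compared by exact permutation. With 3 libraries a group, their number limits precision, and nothing in the labels says that they came from separate cultures, so p-values cover the spread of these libraries alone and that spread may be technical. On the recovered reads, edgeR 4.0.16 (quasi-likelihood) called 1059 genes higher and 1064 lower for LPS + H-CDs against LPS, and DESeq2 1.42.0 called 992 and 1330.

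The 9 genes, the gene lists and the rules were chosen with earlier results of these data known. All 9 genes are named; from each list, up to 3 genes per comparison and direction with the smallest adjusted p were eligible, with Tnf, Il1b, Il6, Ptgs2, Nfkbiz and Dusp1 whatever their test. Alternatives were pseudocounts of 0.1 and 5, no filter, a filter at 5 FPKM, TPM and total-read scaling, both count tools, only the 2 groups compared, a replicate block and leaving out each library. Overlapping genes on either strand may share reads. Promoters are RefSeq's (GRCm38.p6), found for 8 of the 9 genes. All 9 genes had the same coordinates in the deposited table and in GENCODE M21.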

Additional observations from a re-analysis of the deposited data

How the results depend on the processing

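The 3 genes lower with H-CDs stayed lower and called in all 19 alternatives run: Zfp36 between -0.70 and -0.59, Mapkapk2 between -0.50 and -0.40 and Zc3h12a between -0.37 and -0.23, with a highest adjusted p of 0.0489. Scaling moved the counts over all genes. For LPS against control, 3372 higher and 3136 lower became 1676 and 5657 with TPM and 1904 and 5191 with total reads, and 2 of the 9 genes were lower instead of 1. For LPS + H-CDs against control, 3120 higher and 2970 lower became 1651 and 5338 with TPM and 2033 and 4528 with total reads. For LPS + H-CDs against LPS, 766 higher and 1060 lower became 1195 higher with total reads and 690 lower with either scaling. Leaving out 1 library gave 446 to 714 higher and 576 to 1064 lower there, with 473 and 625 without LPS replicate 1, 446 and 576 without LPS replicate 2 and 671 lower without LPS + H-CDs replicate 2. For LPS + H-CDs against control, the lower genes among the 9 went from 2 to 1 with no filter, at 5 FPKM (Zfp36l1 not tested there), with only the 2 groups compared and with the replicate block, and were 1 to 2 when leaving out 1 library; the gene lost was Zfp36l1. Elavl1 against control with H-CDs lost its call with TPM (0.14) and total reads (0.23). Changes near 0 turned sign for Zfp36l2 with H-CDs against LPS (-0.032, -0.0074 and -0.029 without LPS replicate 1, LPS + H-CDs replicate 2 and 3, in a leave-one-out range of -0.032 to 0.045) and for Rc3h2 (0.018 with total reads and 0.018 without LPS replicate 1, in a range of -0.11 to 0.018). With the replicate block, LPS + H-CDs against LPS gave 603 higher and 882 lower, with the same count of 3 among the 9; residuals of same-numbered libraries correlated at -0.121 to 0.198, so the numbers were not taken to pair the libraries. The cause of these shifts was not tested. At 99 to 272 reads, Zfp36l1 is the least precisely measured of the 9.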
